A study of Mus musculus with 12 samples.

Results

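Livers of 12-week-old mice with and without a working Il18 gene were compared on 6 arrays, 3 of Il18 knockout and 3 of wild type livers, which are the 12-week arrays of a series of 12. The other 6 arrays hold the same genotypes at 6 weeks of age. All mice were BALB/c and untreated, each array received RNA of whole liver, and the labels call the 3 arrays of a group biological replicates. They give no sex, no time of killing, no deleted exon of Il18 and no breeding history of the knockout line, so any genome difference or time difference that goes with the line cannot be told apart from the loss of Il18. The hepatocyte markers, among them Alb (albumin), Ttr (transthyretin) and Hnf4a, were all measured, with a median difference between genotypes of -0.01 on the log2 scale over 10 markers. The Y-linked transcripts Ddx3y, Eif2s3y and Uty were well above background on all 6 arrays. Kdm5d, also Y-linked, and Xist, which is made from the inactive X chromosome, were so on 0 of them.

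Interleukin-18 is a cytokine of the interleukin-1 family. It is made as an inactive precursor, is cut by caspase-1 in inflammasomes, and acts through a receptor of an alpha and an accessory chain on natural killer (NK) cells and T cells, where, together with interleukin-12, it drives release of interferon-gamma. In liver, Kupffer cells, the resident macrophages, are a known source of it. Whole liver is mostly hepatocyte RNA, whose gene expression follows feeding, insulin and a daily clock. A lower level of a marker in whole tissue can come from fewer cells of that type or from less RNA per cell, which these arrays cannot tell apart.

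The Il18 result rests on 1 probe of 60 bases, shown here because it sets which RNA is read as Il18. It lies at chr9:50389761-50389820 on mm9, plus strand.

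Il18 probe: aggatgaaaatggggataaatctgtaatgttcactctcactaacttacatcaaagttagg

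Levels are given as log2 of the processed signal relative to the 75th percentile of the array, so 0 is the signal at that percentile, and levels of different probes are not compared. Il18 lay at 2.25, 2.15 and 2.49 on wild type arrays 1, 2 and 3 and -0.03, -0.12 and 0.04 on knockout arrays 1, 2 and 3. All knockout arrays were below all wild type arrays. The knockout was 5.05-fold lower, a log2 difference of -2.34 ± 0.11 (SE, adjusted p = 1.1e-05). The probe was still well above background on all 3 knockout arrays.

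Wild type array 1 was on slide 1 and the other 5 arrays of this age on slide 2, so differences are also given with that array left aside, within slide 2 (2 arrays of wild type against 3 of knockout). The error of that fit also came from the 3 knockout arrays of 6 weeks, which were on slide 2 too. The 75th percentile of the signal was 387 to 414 in wild type and 352 to 385 in knockout, and 56.3% to 57.7% of the spots were well above background in wild type and 55.6% to 56.3% in knockout. Across genes, which are not independent replicates, pairs of wild type arrays correlated at 0.987 to 0.991, pairs of knockout arrays at 0.995 to 0.996 and pairs across genotypes at 0.986 to 0.990. The first principal component of the 6 arrays held 39.97% of the variance and placed wild type at -44.4, -24.2 and -12.8 and knockout at 26.9, 29.9 and 24.5. The second, with 25.6%, spread the wild type arrays from -45.8 to 29.3 and the knockout arrays from 4.54 to 10.5. The wild type arrays were thus further apart than the knockout arrays.

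**Figure D1:**
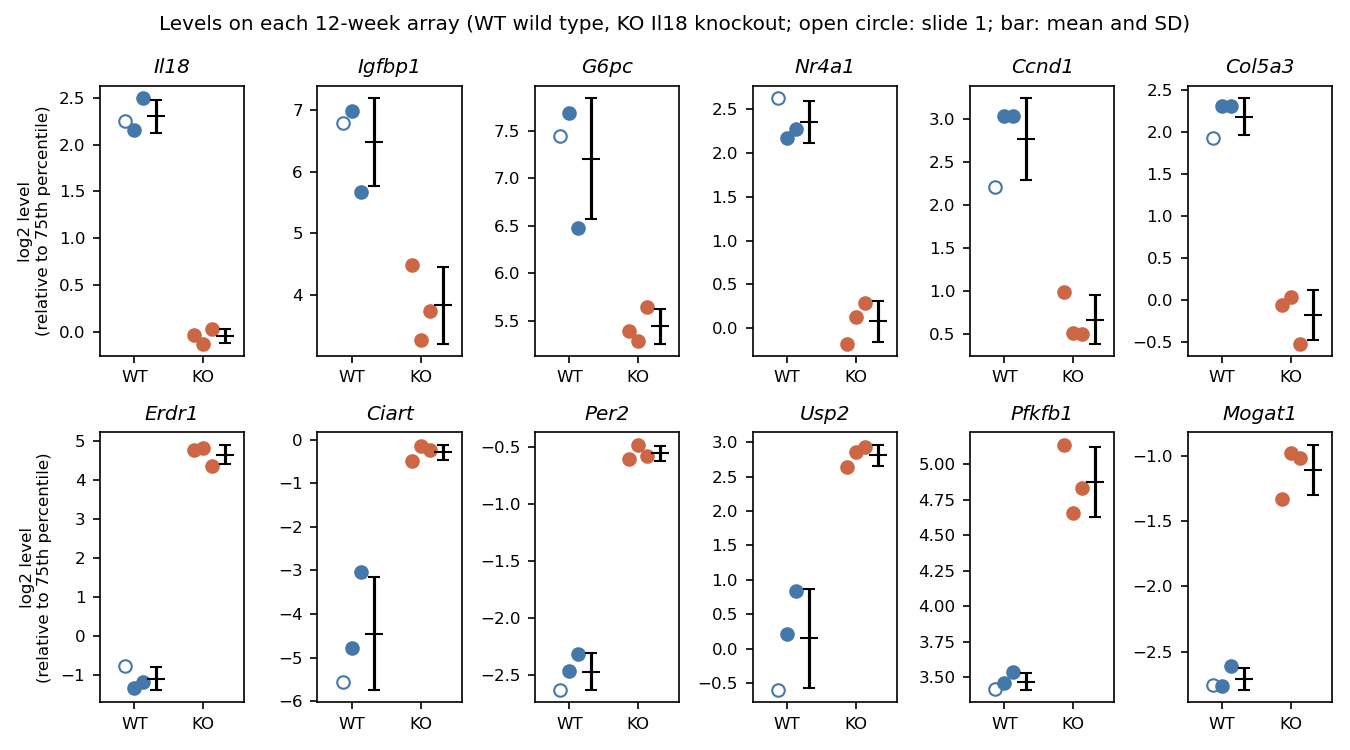
Log2 level of 12 genes on each 12-week array, relative to the array's 75th percentile, for 3 wild type (blue) and 3 Il18 knockout (orange) livers; bars are mean and SD and the open circle is the wild type array of slide 1. In each of these 12 genes the groups do not overlap, a condition by which several of them were chosen. Ciart in wild type runs from -5.55 to -3.03.

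The test took its error from all 12 arrays, fitted as 4 groups. Of 22117 genes tested, 1815 (8.21%) passed an adjusted p of 0.05, limma's with Benjamini-Hochberg adjustment over all genes, and these are called changed here. Of them 1249 (5.65%) were higher and 566 (2.56%) lower in the knockout, and 262 (1.18%) differed at least 2-fold, 151 higher and 111 lower. The groups did not overlap for 27.4% of the genes tested. Counts of called members in the gene lists below are to be read beside the 8.21% called over all genes. With the error taken from the 12-week arrays alone, 377 genes passed, of which 339 were among the 1815. Within slide 2 all 1815 kept their sign and 629 passed; that fit called 732 genes in all (3.31%), 456 higher (2.06%) and 276 lower (1.25%). Counts of calls moved with single arrays: 729 genes passed without knockout array 1, 1030 without knockout array 2, 676 without knockout array 3, and 1281 to 2072 without a wild type array. In all 6 fits that left out 1 array 523 of the 1815 genes passed, and 426 of these passed within slide 2 as well. A gene is called firm below where it passed in all 6 of those fits, each with the 6-week arrays in the error. Of the firm genes named below, G6pc, Krt23, Slc38a5, Pdia3, Cyp2c55, Gadd45b, Cd14, Klf1, Cryab, Fdx1 and C2cd2l did not pass with the 12-week arrays alone (adjusted p from 0.0524 to 0.094).

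**Figure D2:**
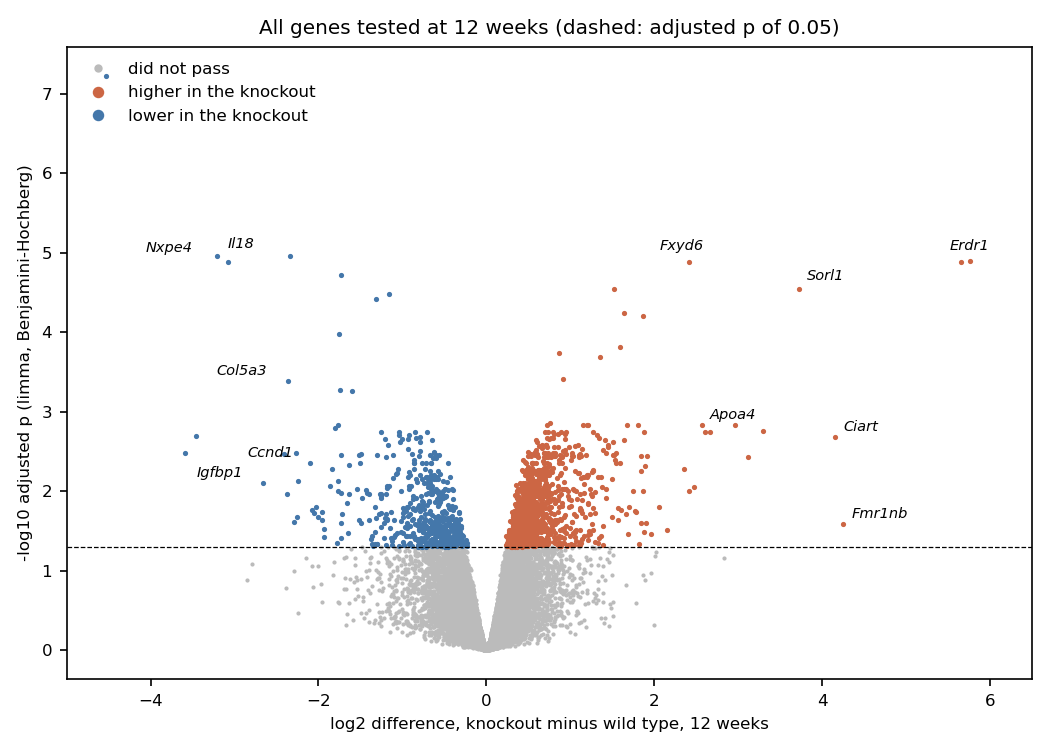
Log2 difference (knockout minus wild type at 12 weeks, x axis) against -log10 of limma's adjusted p (y axis) for the 22117 genes tested; orange and blue points are the 1249 genes called higher and the 566 called lower. Erdr1 stands at 5.76, Sorl1 at 3.72 and Igfbp1 at -2.66; Nxpe4 is drawn at its fitted value although its knockout signal was not well above background, and Fmr1nb, at 4.25, lies near the dashed threshold.

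The highest rise was that of Erdr1. It lay at -0.77, -1.33 and -1.19 on wild type arrays 1, 2 and 3 and 4.78, 4.83 and 4.37 on knockout arrays 1, 2 and 3, so the groups were far apart relative to their spread. The difference was 5.76 ± 0.30 (SE, adjusted p = 1.25e-05), or 54.2-fold, and 5.92, adjusted p = 3e-05 within slide 2. The array files give no genome position for its probe. At 6 weeks Erdr1 averaged 4.75 in wild type and 3.64 in knockout, and was called lower in the knockout (-1.11, adjusted p = 0.0272). The 12-week knockout mean was 4.66, so the 12-week wild type, with a mean of -1.10, was the group apart from the others. Lrtm1, a leucine-rich repeat membrane protein gene, lay at -1.31, -1.64 and -1.81 in wild type and 1.46, 1.28 and 1.38 in knockout, with a difference of 2.96 ± 0.31 (SE, adjusted p = 0.00148). At 6 weeks Lrtm1 averaged 1.61 in wild type and 1.03 in knockout, so here too the 12-week wild type was the group apart. Dkk4, which encodes a secreted Wnt antagonist, rose by 2.47 ± 0.42 (SE, adjusted p = 0.00894), from -4.37, -3.86 and -4.52 in wild type and -2.03, -1.49 and -1.82 in knockout. Krt23, a keratin gene, rose by 2.41 and Fgf9, a fibroblast growth factor gene that was not well above background on any wild type array, was at least 1.76-fold higher. Flacc1, also below that limit in wild type, was at least 4.3-fold higher. These 6 genes were firm, and all but Krt23 passed within slide 2 (2.37, adjusted p = 0.0517 for Krt23).

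Other large rises were less certain. Fmr1nb was at -6.73, -4.29 and -5.38 in wild type and 0.20, -1.38 and -2.47 in knockout, so both groups were widely spread. It rose by 4.25 ± 0.96 (SE, adjusted p = 0.0261), was above the background limit on 1 of the 3 wild type arrays, and lost its call without wild type array 1 or knockout array 1 or 2 (leave-one-out differences 3.54 to 4.88). Tchh, the hair follicle protein trichohyalin, at 2.15, kept its call in 1 leave-one-out fit, the one without wild type array 1 (differences 1.79 to 2.76), and Irx3, a homeobox gene well above background on 1 of the 3 wild type arrays, at 1.97, in the one without wild type array 3 (1.57 to 2.54). Krtap4-16, a keratin-associated protein gene, rose by 2.61 by 1 probe and lay at -0.04 by its other probe. Among the 473 called genes with more than 1 tested probe, 530 of the 599 other probes had the sign of the probe used and 186 passed by themselves.

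Among the genes named for large falls, Igfbp1, Nr4a1 and Ccnd1 are described with their groups and those near Il18 with chromosome 9. Cmtm2a fell by -2.30 with wild type arrays between -3.05 and -0.50; it passed within slide 2 (-3.05, adjusted p = 0.00307) and lost its call without wild type array 2 or any 1 knockout array (differences -3.05 to -1.78). Slc38a5, an amino acid transporter gene, was not well above background in knockout and was at least 1.85-fold lower, a firm call that did not pass within slide 2 (-2.09, adjusted p = 0.0576). Klhl1 was likewise at least 2.32-fold lower and Coro2a at least 1.31-fold lower. Klhl1 lost its call without wild type array 2 or knockout array 1 or 3 (differences -2.58 to -1.83), and Coro2a did so without any 1 of the 6 arrays (-2.06 to -1.83). Msmp, at -2.08, lost it without knockout array 1 or 3 (-2.43 to -1.58). Abcd2, a peroxisomal fatty acid transporter gene well above background on 2 of the 3 knockout arrays, at -1.95, lost it without wild type array 1 or knockout array 1 or 3 (-2.41 to -1.57), and Rad51b, a recombination gene, at -1.95, without wild type array 2 or knockout array 1 or 3 (-2.37 to -1.53). Tff3, a trefoil peptide gene of mucous epithelia, at -1.93, lost it without wild type array 1 or 2 or knockout array 2 or 3 (-2.43 to -1.44).

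Igfbp1, G6pc, Nr4a1, Igfbp2 and Irs2, genes that insulin represses or that serve glucose output, were lower in the knockout. Igfbp1, a liver-made binding protein of insulin-like growth factors that insulin shuts off, lay at 6.79, 6.99 and 5.67 on wild type arrays 1, 2 and 3 and 4.49, 3.26 and 3.73 on knockout arrays 1, 2 and 3. Its groups did not overlap, although each spanned over 1 log2 unit. It was 6.31-fold lower (-2.66 ± 0.44 (SE, adjusted p = 0.00794)); within slide 2 it did not pass (-2.50, adjusted p = 0.0599). G6pc, the catalytic subunit of glucose-6-phosphatase, which releases glucose from liver, lay at 7.45, 7.68 and 6.48 in wild type and 5.39, 5.29 and 5.65 in knockout and fell by 1.76 (3.39-fold, adjusted p = 0.00742). Nr4a1, a nuclear receptor induced by glucagon signalling and an immediate early gene, lay at 2.62, 2.16 and 2.27 in wild type and -0.17, 0.13 and 0.28 in knockout. It fell by 2.27 (adjusted p = 0.00333). At 6 weeks Nr4a1 averaged -0.77 in wild type and 0.16 in knockout. The 12-week means were 2.35 in wild type and 0.08 in knockout, so the 12-week wild type was the group apart from the others. Igfbp2, a second binding protein gene, was at -0.83 and its other probe at -0.86. These 4 genes were firm, while Irs2, the insulin receptor substrate gene that insulin represses, at -0.94 (adjusted p = 0.0367), was not (it lost its call without wild type array 1 or 2 or knockout array 2 or 3, with differences of -1.11 to -0.68).

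The list as a whole did not move one way. Of 19 insulin-repressed and gluconeogenic genes, 5 were lower and 2 higher, with a median of -0.02 against 0.01 over all genes tested. The 2 that rose were Got1, an aspartate aminotransferase gene, at 1.27 (adjusted p = 0.0308), and Fbp1, fructose-bisphosphatase, at 0.35 (adjusted p = 0.038). Got1 kept its call in the fit without wild type array 3 alone (1.12 to 1.39), and Fbp1 lost it without wild type array 1 or 2 or knockout array 1 or 3 (0.28 to 0.42). Pck1, the phosphoenolpyruvate carboxykinase gene, was at -0.23 (adjusted p = 0.585) and Ppargc1a, a coactivator of fasting genes, at -0.02 (adjusted p = 0.975). Pdk4, a kinase that shuts off pyruvate oxidation in fasting, lay at 0.08, -0.02 and 0.34 in wild type and -0.95, -1.15 and -1.32 in knockout, a difference of -1.28 (adjusted p = 0.0194); it lost its call without knockout array 2 or 3 (-1.37 to -1.17). It was the 1 gene that passed among 24 of fatty acid oxidation and PPAR-alpha targets (median 0.05).

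Several genes of glucose use and fat storage rose. Pfkfb1, the liver bifunctional enzyme that sets fructose 2,6-bisphosphate, lay at 3.41, 3.46 and 3.53 on wild type arrays 1, 2 and 3 and 5.14, 4.66 and 4.83 on knockout arrays 1, 2 and 3. The knockout was 2.65-fold higher (1.41 ± 0.17 (SE, adjusted p = 0.00224)). It was firm and passed within slide 2 (1.38, adjusted p = 0.0236). Thrsp, a lipogenic regulator, at 1.69, and Pklr, liver pyruvate kinase, at 0.73, also rose; of 24 glycolysis and fatty acid synthesis genes 4 rose and none fell. Thrsp kept its call in 1 leave-one-out fit, that without wild type array 2, and Pklr in none (differences 1.49 to 1.87 and 0.62 to 0.85). In that list 22 of 24 members had a difference above 0, with a median of 0.34 (0.22 within slide 2); Fasn, fatty acid synthase, was at 0.73 (adjusted p = 0.465) and Srebf1, its regulator, at 0.79 (adjusted p = 0.129).

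Of 18 lipid droplet and PPAR-gamma target genes, 3 rose and none fell (median 0.35, and 0.24 within slide 2). Mogat1, a monoacylglycerol acyltransferase of triglyceride synthesis, lay at -2.75, -2.76 and -2.61 in wild type and -1.33, -0.98 and -1.01 in knockout, and its tight groups differed by 1.596 ± 0.23 (SE, adjusted p = 0.00441). Mogat2, at 1.57, and Cidec, which enlarges lipid droplets, at 1.57, lost their calls without knockout array 2 or 3, and Cidec also without wild type array 1 (differences 1.48 to 1.69 and 1.38 to 1.76); the second Cidec probe, at 0.80, did not pass. Pparg itself was at 0.05 (adjusted p = 0.899). The adipocyte genes Adipoq, Plin1 and Lep were well above background on 0 of the 6 arrays, and none of the 4 adipocyte markers tested passed (median 0.56, 3 of 4 above 0). Cfd, adipsin, lay at -2.27, -3.45 and -2.25 in wild type and -0.04, 0.58 and 0.00 in knockout, well above background on all 6 arrays and without overlap, a difference of 2.84 ± 0.86 (SE, adjusted p = 0.0698). Fabp4 was at 0.20 (adjusted p = 0.474). The summed level of the 4 markers was 4.89 to 6.18 in wild type and 6.77 to 7.49 in knockout, and the part of adipocyte RNA in the lipid droplet genes was not tested. Cholesterol synthesis had 1 of 20 genes changed, Sc5d at -0.68, which lost its call without knockout array 2 or 3 (-0.77 to -0.59), and bile acid synthesis and transport had none of 15 (medians -0.08 and 0.07).

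Sds, Asl, Gls2 and Cps1, enzymes of amino acid breakdown and urea synthesis that hepatocytes near the portal vein make most, were higher. Sds, serine dehydratase, lay at 4.50, 4.47 and 4.40 on wild type arrays 1, 2 and 3 and 5.67, 5.51 and 5.67 on knockout arrays 1, 2 and 3. The difference was 1.16 ± 0.12 (SE, adjusted p = 0.00148), or 2.23-fold. Asl, argininosuccinate lyase of the urea cycle, lay at 5.33, 5.26 and 5.15 in wild type and 6.05, 5.98 and 6.02 in knockout and rose by 0.77; Gls2, liver glutaminase, rose by 0.57. These 3 were firm and passed within slide 2. Cps1, the first urea cycle enzyme, rose by 0.53 and lost its call without wild type array 1 or 2 or knockout array 1 or 3 (0.45 to 0.61). Otc, ornithine transcarbamylase, was at 0.29 (adjusted p = 0.0555) and Arg1, arginase, at 0.44 (adjusted p = 0.077). Of 14 periportal genes 4 rose and 1 fell, with a median of 0.32 (0.31 within slide 2). The 1 that fell was Cdh1, E-cadherin, at -0.49 (adjusted p = 0.0495), which kept its call in the fit without wild type array 3 alone (-0.65 to -0.37). Of 13 pericentral genes, those expressed around the central vein, none rose and 2 fell: Axin2, a Wnt target, at -1.15 and Cyp1a2 at -0.39, with a list median of 0.00. Axin2 lost its call without wild type array 1 or any 1 knockout array (-1.27 to -1.01), and Cyp1a2 without wild type array 1 or 3 or knockout array 2 or 3 (-0.47 to -0.31). Glul, glutamine synthetase, was at 0.00 and Cyp2e1 at 0.01, with adjusted p-values of 0.99 and 0.952.

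The called genes of the circadian clock and its output were all higher in the knockout. In the clock, BMAL1 (Arntl) and CLOCK switch on Per, Cry and Ciart genes through E-boxes, the products of those genes repress BMAL1 and CLOCK, and DBP, TEF and HLF act on D-boxes. The stretches upstream of Ciart and Per3 are shown because both genes rose and their motifs are those of the loop. They are the 250 bases before the RefSeq start sites on GRCm38.p6, chr3:95882229-95882478 on the minus strand and chr4:151044666-151044915 on the minus strand. Capitals mark the E-box CACGTG in Ciart and the D-box TTATGTAA in Per3.

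Ciart promoter: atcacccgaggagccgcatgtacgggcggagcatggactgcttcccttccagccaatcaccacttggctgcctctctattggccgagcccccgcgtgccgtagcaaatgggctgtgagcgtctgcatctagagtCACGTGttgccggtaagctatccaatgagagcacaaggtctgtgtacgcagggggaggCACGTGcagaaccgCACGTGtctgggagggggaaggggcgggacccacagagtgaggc

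Per3 promoter: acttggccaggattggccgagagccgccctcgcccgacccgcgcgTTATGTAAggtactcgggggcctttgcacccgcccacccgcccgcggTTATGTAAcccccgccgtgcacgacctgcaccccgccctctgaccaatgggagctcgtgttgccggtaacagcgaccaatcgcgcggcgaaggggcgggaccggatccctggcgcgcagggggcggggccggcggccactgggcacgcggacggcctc

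CACGTG occurred 3 times upstream of Ciart, at -116, -58 and -44 bases relative to the start site, and TTATGTAA occurred 2 times upstream of Per3, at -205 and -158. With both strands searched from 250 bases before to 50 after each start site, CACGTG was found in promoters of 8.09% of all 27025 genes with an entry and TTATGTAA or TTACGTAA in those of 1.23%. Of the 13 core clock genes with a promoter entry, 4 held the E-box (Per1, Cry1, Bhlhe41 and Ciart) and 1 the D-box (Per3). Of 12 clock output genes, Tef, Lonrf3 and Tspan4 held the E-box. Per2 and Wee1 are among the genes without a matched promoter entry. A match describes the letters only.

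Ciart, a repressor of the clock, lay at -5.55, -4.78 and -3.03 on wild type arrays 1, 2 and 3 and -0.49, -0.16 and -0.24 on knockout arrays 1, 2 and 3. The wild type arrays spread over more than 2 log2 units, 1 of the 3 was well above background, and all knockout arrays were higher. The difference was 4.16 ± 0.48 (SE, adjusted p = 0.00208), and 3.61, adjusted p = 0.0176 within slide 2. Per2 lay at -2.63, -2.46 and -2.31 in wild type and -0.60, -0.48 and -0.58 in knockout, with both groups tight, and rose by 1.91 ± 0.26 (SE, adjusted p = 0.00364). Per3, well above background on 2 of the 3 wild type arrays, rose by 1.87 ± 0.33 (SE, adjusted p = 0.00977), from -4.51, -4.31 and -3.69 in wild type and -2.72, -2.05 and -2.11 in knockout. Of 18 core clock genes 5 rose and none fell (median 0.18), among them Cry2, at 0.69. Arntl was at -1.16 (adjusted p = 0.0873), Npas2 at -0.82 (adjusted p = 0.171), Clock at -0.23 (adjusted p = 0.296) and Nr1d1, the gene of REV-ERB-alpha, at 0.10 (adjusted p = 0.879).

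Of 14 clock output genes 5 rose and none fell (median 0.50, and 0.49 within slide 2). Usp2, a rhythmic deubiquitinase gene, lay at -0.60, 0.20 and 0.84 in wild type and 2.65, 2.85 and 2.94 in knockout and rose by 2.67 ± 0.29 (SE, adjusted p = 0.00178). Dbp lay at 4.92, 5.56 and 6.21 in wild type and 6.66, 6.87 and 6.86 in knockout and rose by 1.23, and Wee1, a clock-driven kinase of the cell cycle, rose by 1.34. Tef rose by 0.87 and Hlf by 0.48. In Ciart, Per2, Per3, Cry2, Usp2, Dbp, Tef, Wee1 and Hlf wild type array 1 was lowest and array 3 highest of the wild type. Arntl, which did not pass, had the reverse order, at 0.53, 0.24 and -0.53 on wild type arrays 1, 2 and 3. Ciart, Per2, Per3 and Usp2 were firm, of which Per3 did not pass within slide 2 (1.70, adjusted p = 0.0624). Dbp, Tef, Wee1, Hlf and Cry2 lost their calls without any 1 of the knockout arrays, with differences of 0.91 to 1.56, 0.68 to 1.07, 1.07 to 1.75, 0.42 to 0.58 and 0.54 to 0.82.

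**Figure D3:**
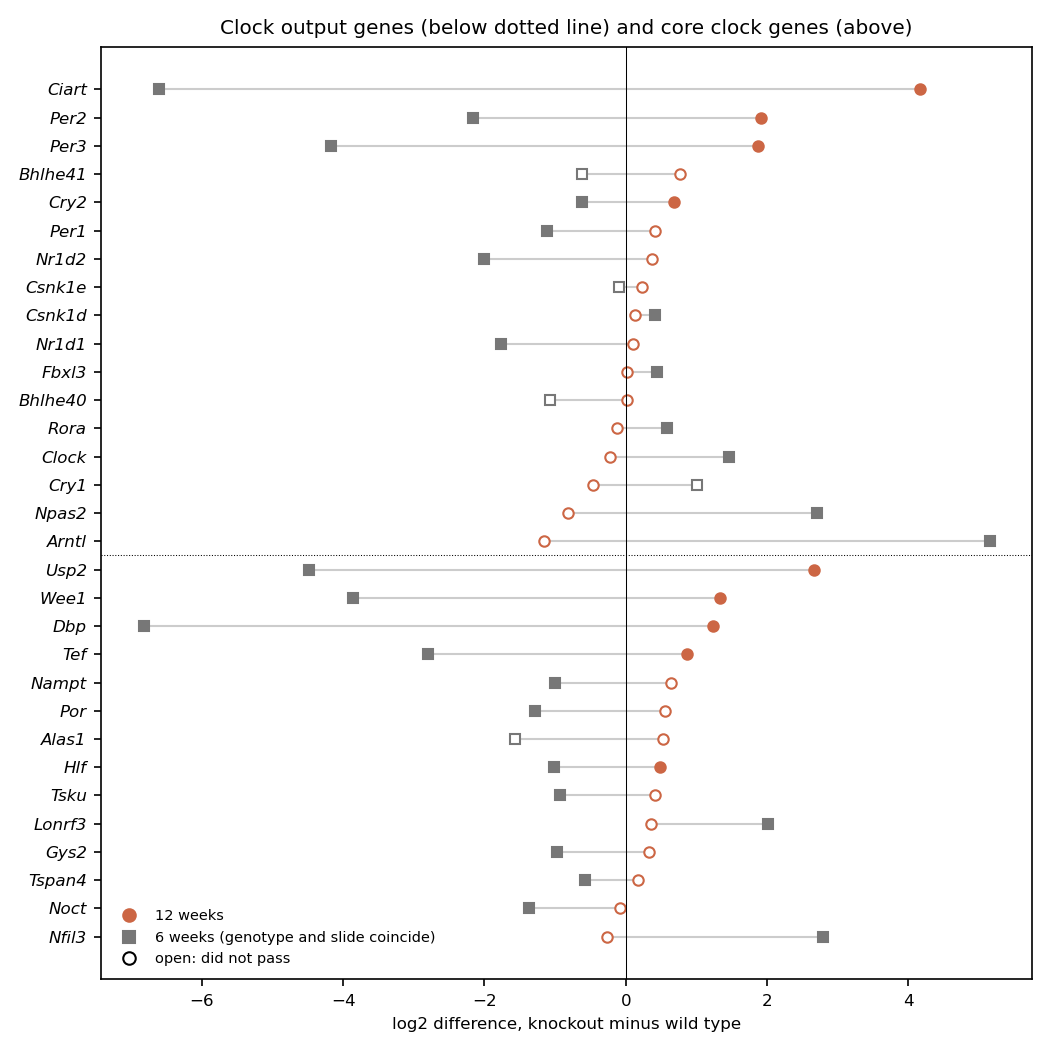
Log2 difference between knockout and wild type of 17 of the 18 core clock genes (above the dotted line) and 14 clock output genes (below it) at 12 weeks (orange circles) and 6 weeks (grey squares); filled symbols passed an adjusted p of 0.05. At 12 weeks Ciart stands at 4.16 and Dbp at 1.23, and at 6 weeks at -6.60 and -6.82. The 6-week size of Ciart is uncertain, as its knockout signal was below 12-week wild type signals not well above background. At 6 weeks genotype and slide coincide.

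Ccnd1, cyclin D1, which drives hepatocytes into the cell cycle, fell. It lay at 2.22, 3.04 and 3.04 on wild type arrays 1, 2 and 3 and 0.99, 0.52 and 0.50 on knockout arrays 1, 2 and 3. Wild type array 1 was the lowest of its group and still above all knockout arrays. Ccnd1 was 4.28-fold lower (-2.10 ± 0.30 (SE, adjusted p = 0.00443)), and -2.37, adjusted p = 0.00307 within slide 2. Of 24 cell cycle genes tested, 3 fell and 1 rose, with a median of -0.27 (-0.41 within slide 2). The other falls were in the mitotic cyclins Ccnb1, at -1.25, and Ccnb2, at -0.91, and the rise was in the inhibitor Cdkn1b, at 0.44. These 3 were lost in some leave-one-out fits: Ccnb1 without knockout array 2 or 3 (-1.55 to -1.10), Ccnb2 without wild type array 2 or 3 or knockout array 1 or 3 (-1.05 to -0.71) and Cdkn1b without wild type array 2 or knockout array 1 or 3 (0.37 to 0.48). Mki67, a marker of dividing cells, was at -0.73 (adjusted p = 0.215).

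Of 18 immediate early genes, Nr4a1 and Dusp6 fell and Btg2 rose (median -0.14). Dusp6, a phosphatase induced by and acting on ERK signalling, lay at 3.70, 3.81 and 3.15 in wild type and 2.46, 2.47 and 2.15 in knockout and fell by 1.20 (adjusted p = 0.00365). Btg2, at 0.67, kept its call in the fit without wild type array 1 alone (0.48 to 0.83). Fos was at 0.01 and Egr1 at -0.11, with adjusted p-values of 0.99 and 0.93. Of 14 glucocorticoid-induced genes and metallothioneins 1 changed (7.14%, against 8.21% of all genes tested). It was Gadd45b, a stress-induced growth arrest gene, at -1.19 (adjusted p = 0.0108). Col5a3, a chain of type V collagen, lay at 1.93, 2.32 and 2.31 in wild type and -0.05, 0.03 and -0.52 in knockout and was 5.16-fold lower (-2.37 ± 0.21 (SE, adjusted p = 0.000408)). It lies on chromosome 9, 29.8 Mb from Il18, and was the 1 of 16 stellate cell and matrix genes that passed; Col1a1 was at -0.20 (adjusted p = 0.776) and the list median was -0.24 (-0.34 within slide 2). Col5a3, Dusp6 and Gadd45b were firm and passed within slide 2.

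Beside Il18, 2 of the 17 tested genes of interleukin-18, inflammasome and cytokine signalling fell and none rose. Il1b, the interleukin-1 beta gene, lay at 0.19, -0.23 and -0.41 on wild type arrays 1, 2 and 3 and -2.59, -2.02 and -1.41 on knockout arrays 1, 2 and 3 and fell by -1.86 ± 0.31 (SE, adjusted p = 0.00855). At 6 weeks Il1b averaged -2.58 in wild type and -2.115 in knockout. The 12-week means were -0.15 in wild type and -2.01 in knockout, so the 12-week wild type was the group apart from the others. Il6 was not well above background in knockout and was at least 1.53-fold lower. Both were firm; within slide 2 Il6 passed (-1.42, adjusted p = 0.039) and Il1b did not (-1.69, adjusted p = 0.0599). Casp1, which cuts the precursor, was at -0.17 (adjusted p = 0.616), Il18bp, the secreted inhibitor, at -0.20 (adjusted p = 0.512), Nlrp3 at 0.01 (adjusted p = 0.989) and Myd88, the receptor adaptor, at -0.04 (adjusted p = 0.849). The receptor chains Il18r1 and Il18rap, and Ifng, Il12a and Il12b, did not reach the signal needed for a test; Ifng was well above background on 3 of the 6 arrays.

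Among 28 interferon-gamma response genes 2 fell and none rose (7.14% called, against 8.21% of all genes tested), with a median of -0.21 (-0.20 within slide 2). Gbp4, a guanylate-binding protein gene, was at -0.96 (adjusted p = 0.036) and Iigp1, an immunity-related GTPase gene, at -0.41 (adjusted p = 0.0449). Gbp4 lost its call without any 1 knockout array (-1.13 to -0.66), and Iigp1 kept its call in the fit without wild type array 2 alone (-0.47 to -0.36). Irf1, a transcription factor of the response, was at 0.25 (adjusted p = 0.536) and Cxcl9 at -0.14 (adjusted p = 0.832). The GAS motif TTCNNNGAA, the interferon-gamma activated sequence, was found in promoters of 9 of the 19 response genes with an entry. Over all 27025 genes it was found in 9.55%. Gbp4 and Iigp1, the 2 genes called, were not among those 9. Of 10 genes of MHC class II presentation none passed, all 10 were below 0 and the median was -0.54 (-0.49 within slide 2); Cd74, the invariant chain, was at -0.60 (adjusted p = 0.264), from 4.07, 3.42 and 4.48 in wild type and 3.35, 2.80 and 4.01 in knockout, with overlapping groups. Among 18 type I interferon-stimulated genes Oasl1 rose, at 0.77, and Bst2 fell, at -0.39 (median 0.00). Oasl1 lost its call without wild type array 2 or 3 or knockout array 1 or 3 (0.68 to 0.87), and Bst2 kept it in the fit without wild type array 3 alone (-0.44 to -0.31).

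Of the 17 markers of T and NK cells that were tested, 5 fell and 1 rose. Cd3g, a chain of the T cell receptor complex, lay at -2.95, -2.88 and -2.64 on wild type arrays 1, 2 and 3 and -4.16, -4.82 and -4.78 on knockout arrays 1, 2 and 3, a fitted difference of -1.77 ± 0.19 (SE, adjusted p = 0.00148); it was well above background on 1 of the 3 knockout arrays, so the size of the fall is uncertain. It lies 5.61 Mb from Il18. Cd3d and Cd3e, other chains of the complex, were at -0.38 (adjusted p = 0.223) and -0.35 (adjusted p = 0.241). Zap70, the kinase of that receptor, went the other way, from 2.81, 3.22 and 2.72 in wild type and 3.90, 3.76 and 3.79 in knockout, by 0.90 ± 0.12 (SE, adjusted p = 0.00358), and its second probe was at 0.94. Cd4, at -0.96, Ccl5, a chemokine of activated lymphocytes, at -0.89, Il2rb at -0.85 and Cd247 at -0.37 were the other 4 that fell, and the median was -0.37 (-0.27 within slide 2). None of these 4 passed within slide 2, and none was firm: Cd4 lost its call without knockout array 2 (-1.14 to -0.75), Ccl5 without knockout array 1 or 2 (-1.06 to -0.67), Il2rb without wild type array 1 or 3 or knockout array 1 or 2 (-1.03 to -0.66) and Cd247 without wild type array 1 or 2 or any 1 knockout array (-0.44 to -0.27). The other Cd4 probe, well above background on 2 of the 6 arrays, was at -0.68 and did not pass. The sum of the linear signals of the 17 markers, which is weighted by its brightest probe, that of Cd4, was 73.7 to 113 in wild type and 53.1 to 65.9 in knockout. The NK receptor genes Klrk1 and Ncr1 were well above background on 0 of 6 arrays.

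Of 9 B and plasma cell markers, Jchain, the joining chain of secreted IgM and IgA, fell, from -0.61, -0.56 and -0.37 in wild type and -2.22, -2.11 and -1.69 in knockout, by 1.49 (adjusted p = 0.00341), a firm call that held within slide 2; Cd79a, of the B cell receptor, was at -0.32 (adjusted p = 0.233). Of 17 Kupffer cell and macrophage markers 3 fell and none rose, with a median of -0.28: Cd14, the lipopolysaccharide co-receptor, at -0.70 (adjusted p = 0.0146), Folr2 at -0.53 (adjusted p = 0.0357) and Timd4 at -0.81 (adjusted p = 0.05). None of these 3 passed within slide 2. Cd14 was firm, Folr2 lost its call without wild type array 2 or 3 or knockout array 1 or 2 (-0.64 to -0.41), and Timd4 kept it in the fit without knockout array 3 alone (-1.09 to -0.59). Clec4f, which marks Kupffer cells, was at -0.33 (adjusted p = 0.143) and Adgre1, F4/80, at -0.15 (adjusted p = 0.736). The summed level of these 17 markers was 210 to 276 in wild type and 150 to 228 in knockout, with overlapping groups.

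Of 4 tested erythroid markers 2 rose and none fell: Klf1, an erythroid transcription factor, at 1.26 (adjusted p = 0.0116), and Slc4a1, band 3, at 0.46 (adjusted p = 0.04). Slc4a1 lost its call without wild type array 1 or 3 or any 1 knockout array (0.37 to 0.53). Hba-a1, alpha globin, was at 0.86 (adjusted p = 0.0614), and the summed level of the 4 was 73.9 to 105 in wild type and 119 to 168 in knockout. Of 7 neutrophil and monocyte markers and 5 pancreas markers none passed. Sinusoidal endothelium had 1 of 12 markers higher (8.33%, against 8.21% of all genes tested), Oit3 at 0.52 (adjusted p = 0.0326). Cholangiocytes had 1 of 6 lower, Spp1, osteopontin, at -0.52 (adjusted p = 0.034). Oit3 kept its call in the fit without wild type array 3 alone and Spp1 in the one without wild type array 1 (0.41 to 0.66 and -0.65 to -0.45). The part of erythroid, lymphoid or macrophage RNA in the other differences was not tested.

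Of 24 genes of the unfolded protein and integrated stress response 5 rose and none fell, 22 had a difference above 0 and the median was 0.44 (0.40 within slide 2). Pdia3, a disulfide isomerase, rose by 0.45 from 4.64, 4.64 and 4.43 in wild type and 5.04, 4.996 and 5.04 in knockout and was firm. Canx, calnexin, rose by 0.33, Sel1l and Edem1, of protein disposal, by 0.76 and 0.51, and Xbp1, the transcription factor of the response, by 0.67. Canx lost its call without knockout array 1 or 3 (0.30 to 0.38), Sel1l without wild type array 1 or knockout array 1 or 2 (0.63 to 0.95), and Edem1 and Xbp1 kept it in the fit without wild type array 2 alone (0.41 to 0.65 and 0.48 to 0.81). Hspa5, the BiP chaperone, was at 0.63 (adjusted p = 0.113) and Ddit3, CHOP, at 0.05 (adjusted p = 0.903). The ERSE motif stood in promoters of 7 of the 22 genes with an entry, against 0.137% of all genes with one. Those 7 include Hspa5 and, of the 5 genes called, Canx alone.

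Of 25 xenobiotic genes 4 fell and none rose, with a median of -0.36 (-0.35 within slide 2). Cyp2c55, a cytochrome P450 gene, fell by 1.27 from 2.15, 2.06 and 2.95 in wild type and 1.30, 1.31 and 0.75 in knockout and was firm, but did not pass within slide 2 (-1.38, adjusted p = 0.0515). Cyp3a11, the main drug-oxidising P450 of mouse liver, was at -0.36 and its other probe at -0.48, Cyp1a2 at -0.39 and the glutathione transferase gene Gstm3 at -0.47, with its other probe at -1.19 (adjusted p = 0.0121). Cyp3a11 and Gstm3 kept their calls in 1 leave-one-out fit each, without wild type array 2 and without wild type array 1 (-0.39 to -0.32 and -0.56 to -0.42). Of 13 male-biased liver genes none passed, and of 13 female-biased genes 2 passed as lower, Cyp3a16, at -0.76, and Cyp3a44, which was not well above background on any knockout array and was so on 2 of the 3 wild type arrays, so that no fold is given. Cyp3a44 lost its call without wild type array 1 or 3 or knockout array 1 or 3 (fitted differences -2.08 to -1.44), and Cyp3a16 kept it in the fit without knockout array 2 alone (-0.93 to -0.50). None of 22 acute phase genes passed (median -0.15), among them Saa1 at -0.52 (adjusted p = 0.372) and Hp, haptoglobin, at -0.03 (adjusted p = 0.852). Of 27 oxidative phosphorylation genes 1 rose, Uqcrc1 at 0.27, and 26 had differences above 0 with a median of 0.10; Uqcrc1 kept its call in the fit without wild type array 3 alone (0.23 to 0.29).

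**Figure D4:**
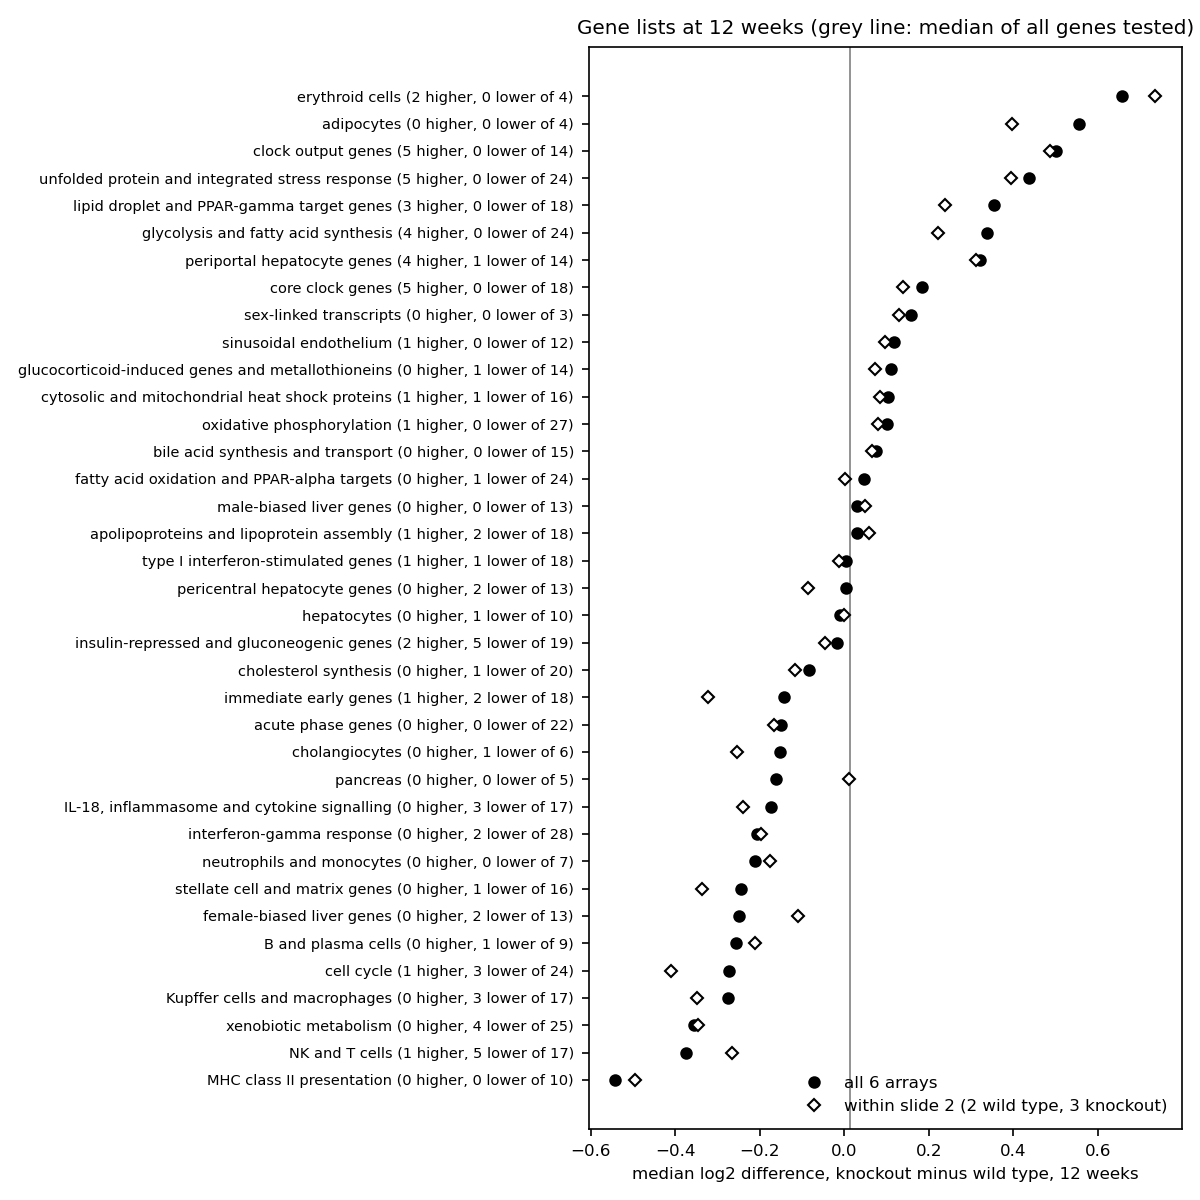
Median log2 difference (knockout minus wild type, 12 weeks) over the tested members of the 37 gene and marker lists, for all 6 arrays (filled circles) and within slide 2 (open diamonds); the grey line is the median of all genes, 0.01. Labels give the members called; clock output genes lie at 0.50 and MHC class II genes at -0.54.

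The share of genes called was larger near Il18 than over the rest of the genome. Chromosome 9 held 134 called genes of 1124 (11.9%), and the other autosomes and X from 5.01% to 9.95%. Within 10 Mb of Il18, 48 of 256 genes (18.8%) were called, 27 higher and 21 lower, against 8.01% of genes on other chromosomes. Of the 256 genes 21 (8.20%) were called and differed at least 2-fold, against 1.10% on other chromosomes. Il18 itself is counted in these numbers and in those for the same region below. No test was run of this difference in share. The share was 40.7% within 1 Mb (11 of 27), 19.5% from 1 to 5 Mb, 14.5% from 5 to 10 Mb, 6.77% from 10 to 20 Mb and 10.8% beyond. Of the 48 genes 30 were firm and 31 passed within slide 2. At 6 weeks, on other arrays, 30 of the 48 were called in the same direction and 7 in the opposite one. On other chromosomes those numbers were 294 and 229 of 1681.

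**Figure D5:**
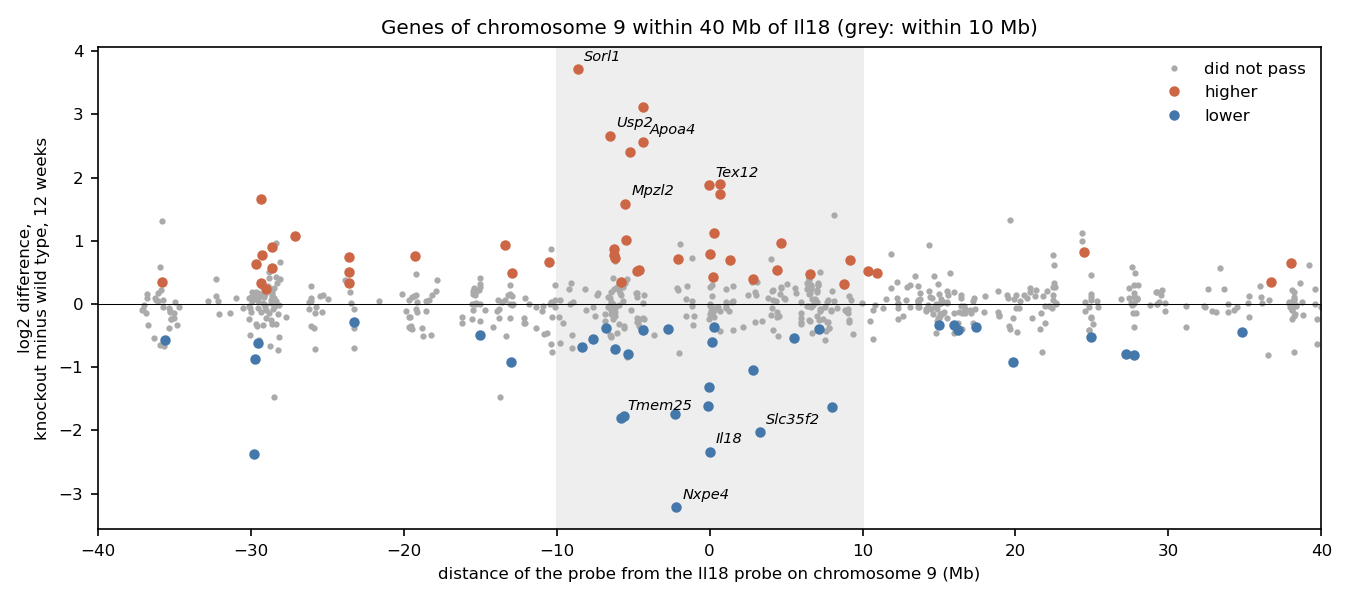
Log2 difference (knockout minus wild type, 12 weeks, y axis) of chromosome 9 genes against the distance of their probe from the Il18 probe (x axis, Mb); coloured points passed an adjusted p of 0.05 and the grey band marks 10 Mb to each side. The band holds 48 called genes, Il18 included, 27 higher and 21 lower, among them Tmem25 at -1.80 and Sorl1 at 3.72. Nxpe4 is drawn at its fitted value although its knockout signal was not well above background.

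Sorl1, a sorting receptor gene 8.61 Mb from Il18, lay at -3.08, -3.22 and -2.43 on wild type arrays 1, 2 and 3 and 0.73, 0.67 and 1.03 on knockout arrays 1, 2 and 3, and rose by 3.72 ± 0.23 (SE, adjusted p = 2.83e-05); a second probe rose by 1.42. Apoa4, an apolipoprotein of fat absorption and fasting liver, 4.34 Mb away, lay at 1.92, 2.04 and 0.88 in wild type and 4.35, 3.999 and 4.18 in knockout and rose by 2.56 ± 0.27 (SE, adjusted p = 0.00148). Its neighbour Apoa1, the main protein of high-density lipoprotein, was at -0.41 (adjusted p = 0.0224), and Apoc3, between them on the chromosome, at 0.02 (adjusted p = 0.909). Apoa1 lost its call without wild type array 1 or 2 or knockout array 2 or 3 (-0.47 to -0.36). Of 18 apolipoprotein and lipoprotein assembly genes Apoa4, Apoa1 and Apom, the last at -0.34 (adjusted p = 0.0332), were the ones called; Apom kept its call in the fit without wild type array 1 alone (-0.39 to -0.29). Fxyd6, a regulator of the sodium pump, rose by 2.41 ± 0.13 (SE, adjusted p = 1.31e-05) from -1.05, -0.72 and -0.60 in wild type and 1.78, 1.505 and 1.57 in knockout. Nxpe4 was not well above background on any knockout array and was at least 1.87-fold lower, while its neighbour Nxpe2 lay at 1.31, 1.28 and 0.97 in wild type and -0.46, -0.61 and -0.57 in knockout and fell by 1.73. Tmem25, at 3.06, 3.31 and 3.34 in wild type and 1.43, 1.45 and 1.42 in knockout, fell by 1.80.

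The nearest genes went both ways. Bco2, a carotenoid-cleaving oxygenase gene 0.05 Mb from Il18, lay at 1.88, 1.80 and 2.05 in wild type and 0.68, 0.53 and 0.59 in knockout and fell by -1.31 ± 0.09 (SE, adjusted p = 3.8e-05). Plet1, 0.08 Mb away, fell by 1.61 and Tex12, a meiosis gene 0.02 Mb away, rose by 1.88, from -2.46, -2.58 and -2.88 in wild type and -1.02, -0.85 and -0.39 in knockout. Nkapd1, at 0.80, rose, and Cryab, a small heat shock protein gene, at -0.60, fell. Between and beside them Sdhd was at 0.00, with an adjusted p of 0.993. Further out, Mpzl2 rose by 1.59, and Fdx1, the electron donor of mitochondrial P450 enzymes, by 0.69. Il10ra, the interleukin-10 receptor gene, fell by 0.79, Atm, a DNA damage kinase gene, by 1.05, and Cd276, an immune checkpoint gene that was well above background on 2 of the 3 knockout arrays, by 1.64. The genes from Sorl1 on that rose or fell were firm, except Apoa1 and Apom. Slc35f2, at -2.03, lost its call without knockout array 3 (-2.20 to -1.81). Probes of 1 gene disagreed for C2cd2l (0.78, with an adjusted p of 0.996 for the other probe), Slc37a4 (0.73 and -0.49) and Ift46 (0.35 and -1.97). Slc37a4 lost its call without knockout array 1 or 3 (0.62 to 0.84), and Ift46 kept it in the fit without wild type array 3 alone (0.29 to 0.41).

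The differences at 12 weeks were set beside those at 6 weeks, which come from 6 other arrays. There each genotype had a slide of its own, so genotype and slide cannot be told apart. At 6 weeks 4659 genes (21.1%) were called, 2591 higher (11.7%) and 2068 lower (9.35%). Of the 1815 genes called at 12 weeks, 343 (18.9%) were called in the same direction at 6 weeks, 252 (13.9%) in the opposite direction and 1220 (67.2%) were not called; the 595 genes called at both ages were 12.8% of those called at 6 weeks. A direct test of the difference between the ages called 2287 genes (10.3%), 1234 with a higher (5.58%) and 1053 with a lower (4.76%) difference at 12 weeks. Il18 differed by -2.34 at 12 and -2.54 at 6 weeks. Sorl1, Apoa4 and Fxyd6 differed by 3.89, 2.77 and 2.72 at 6 weeks, close to their 12-week values of 3.72, 2.56 and 2.41. Ciart, at -6.60, Per2, at -2.17, Per3, at -4.17, Usp2, at -4.48, and Dbp, at -6.82, were lower in the 6-week knockout, and G6pc, at 1.89, and Pdk4, at 2.35, were higher, each the opposite of 12 weeks. In the 6-week knockout Ciart lay at -6.41, -6.60 and -6.75 and Per3 at -6.49, -6.68 and -5.525. These levels are below 12-week wild type levels of the same genes that were not well above background. The sizes of their 6-week differences are therefore uncertain. Of the 32 clock and output genes 22 were called for the difference between the ages. Pfkfb1, Mogat1, Sds, Jchain and Dusp6 were at 0.25, 0.03, -0.25, -0.04 and -0.05 at 6 weeks, and none of these 5 passed there.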

How the data were processed

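RNA from whole liver was hybridised to 1-colour arrays, per the labels. The authors' deposited intensity files come from Agilent Feature Extraction 10.7.3.1, per the file headers: the processed intensity has a spatial background subtracted, is detrended, holds surrogates for low values and is not scaled between arrays. The deposited value table holds the same intensity, rounded, within 0.497%, as linear values that are not centred. Its column medians for the 12-week arrays were 29.5, 26.4 and 22.4 in wild type and 21.6, 23.8 and 23.5 in knockout, and those of the 6-week arrays were 29.2, 25.9 and 26.3 in wild type and 23.2, 26.0 and 21.9 in knockout.

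Control and outlier spots were left out. Log2 intensity minus the array's 75th percentile was averaged per probe. Probes well above background on all 3 arrays of a group were tested (29792 of 55681), using the brightest probe of a gene. RefSeq (GRCm38.p6) tables gave names by accession to 26582 probes, by current symbol to 2602 and by synonym to 492; 26005 kept the file's name. Limma 3.58.1 fitted all 12 arrays by group (8 residual degrees of freedom); adjusted p-values are Benjamini-Hochberg over all genes. An "at least" fold sets the brighter group against the lowest signal well above background. The fit was tested on simulated data. Named were the 15 largest rises and falls with non-overlapping groups, up to 6 members of smallest p per list, called genes within 10 Mb of Il18, and the largest differences between ages (5 in each direction) or opposite calls (3). Some genes that this rule takes are not reported here. The members, lists and tests were chosen with earlier results of these data known.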

Additional observations from a re-analysis of the deposited data

Results flagged for a closer look

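The difference between knockout and wild type was not the same at 12 as at 6 weeks for 2287 genes, by limma's test of the difference itself. That test sets the 12-week difference against 6-week arrays in which genotype and slide coincide, so the slide cannot be told apart from age in it. Values below are the 12-week minus the 6-week log2 difference.

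Among clock genes it was 10.76 for Ciart, 8.06 for Dbp, 7.14 for Usp2 and -6.31 for Arntl. Among metabolic genes it was -3.65 for Igfbp1, -3.65 for G6pc, -7.12 for the fatty acid elongase Elovl3, 7.71 for the cytochrome P450 Cyp2b13, -4.83 for Nat8f5 and -2.52 for Slc38a5. Cyp2b13 was well above background on 2 wild type and 0 knockout arrays of 12 weeks.

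Growth and structural genes gave -5.31 for Cdkn1a, which encodes p21, -3.61 for Tpx2, a spindle protein, -4.80 for Tubb2a, 3.34 for Krt23, -1.46 for Col5a3, 2.99 for Fgf9 and -3.20 for Nr4a1. The remaining values were 6.87 for Erdr1, 5.51 for Flacc1, 3.54 for Lrtm1, 3.29 for Irx3 and -3.59 for Meox1. At 12 weeks alone Cdkn1a stood at 0.03 and Elovl3 at -0.96, and neither passed. Several of these values are fitted on signal near the background limit and their size is uncertain. The Ciart value also rests on 6-week knockout levels of -6.41, -6.60 and -6.75. They are below 12-week wild type levels that were not well above background. At 12 weeks Slc38a5 and Tpx2 were well above background on 0 of the 3 knockout arrays and Meox1 on 1, and Flacc1 and Fgf9 were so on 0 of the 3 wild type arrays and Irx3 and Ciart on 1. Tpx2 was at least 1.95-fold lower at 12 weeks. Meox1 lost its 12-week call without wild type array 1 or any 1 knockout array (-1.95 to -1.34).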

How the results depend on the processing

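Il18 kept its direction and passed in all 13 alternatives run and in the 6 fits without 1 array, with differences of -2.41 to -2.24 when 1 array was left out. Counts of calls moved more. Against 1815 genes called at 12 weeks (1249 higher, 566 lower), 377 passed with only the arrays of 12 weeks (260 and 117), 732 within slide 2 (456 and 276), 913 with array median scaling (693 and 220) and 825 with no filter on dim probes (603 and 222). With the slide as a fixed block 793 were higher. For the 12-week difference that fit is the same as the one without wild type array 1. The slide effect is estimated there from that array against the other wild type arrays of 12 weeks. Leaving out 1 array gave 676 to 2072 calls, 437 to 1383 higher and 239 to 689 lower. The 262 genes of at least 2-fold became 169 with only the arrays of 12 weeks, 120 with normexp background correction, and 177 to 316 without 1 array. The 48 genes near Il18 became 24 with only the arrays of 12 weeks and 32 to 48 without 1 array. For the difference between ages, 2287 became 1384 with array median scaling, 1341 with no filter and 1578 to 3317 without 1 array. It became 1533 with the slide as a fixed block and 1961 with it as a random block. The fit with the replicate block gave 645 calls (423 higher, 222 lower) and 1244 for the difference between ages. Over all genes, arrays of equal number correlated at -0.07 to 0.04 in their deviations, so the numbers showed no pairing over genes as a whole. Pairing within smaller sets of genes was not tested. H2-DMb1, of class II presentation, and Tgtp2, of the interferon-gamma response, did not pass in the main fit. Both passed with the replicate block (limma's adjusted p = 0.0351 and 0.0218). Coro2a turned to 0.76 with no filter, where the brightest of all probes of a gene is used, whether or not it passed the filter. Ift46 turned to -0.81 with the mean over its probes, which were at 0.35 and -1.97. Of 137 named genes that passed, 64 did so in all 6 leave-one-out fits, 66 within slide 2, 74 with the replicate block and 56 with the 12-week arrays alone. With 3 arrays a group, precision is limited, and p-values rest on 1 spread shared by all 4 groups, the 6-week ones included. Signal limits what dim genes such as Fmr1nb, Irx3 and Fgf9 can show.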

Other observations

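Of the 20 genes with the smallest p at 12 weeks, a set chosen after its values were seen, 8 lay within 10 Mb of Il18 and 12 elsewhere. Il18 itself is among the 8. All 20 passed within slide 2 and in all 6 leave-one-out fits. Nnt, the mitochondrial transhydrogenase that makes NADPH, on chromosome 13, lay at 3.66, 3.60 and 4.01 in wild type and 5.41, 5.31 and 5.45 in knockout, a difference of 1.63 (adjusted p = 5.66e-05). At 6 weeks its difference was -0.06. Ccno, a cyclin-family gene of multiciliated cells, also on chromosome 13, lay at -2.65, -2.40 and -2.53 in wild type and -1.01, -1.05 and -0.95 in knockout and rose by 1.52, against -0.51 at 6 weeks. Nkapl, on the same chromosome, was not well above background on any wild type array of 12 weeks and was at least 2.01-fold higher. At 6 weeks its fitted difference was -0.61. Dnal4, a dynein light chain gene on chromosome 15, rose by 0.91, from 0.88, 0.88 and 0.77 in wild type and 1.75, 1.63 and 1.90 in knockout.

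The smallest p of all belonged to a probe that the array names only by an interval of chromosome 5, at 152006609 to 152006668 on mm9. It lay at -2.27, -1.82 and -2.08 in wild type and -6.63, -6.60 and -6.53 in knockout. It was not well above background on any of the 3 knockout arrays, and was at least 5.55-fold lower there.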
